A study of Homo sapiens with 4 samples.

Results

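The miR-30 family was described here across its 3 loci in HEK293T cells, from small RNA libraries of CAG landing pad lines and PGK landing pad lines. The 10 member strands were chosen by name as the entries hsa-miR-30a-5p, hsa-miR-30a-3p, hsa-miR-30b-5p, hsa-miR-30b-3p, hsa-miR-30c-5p, hsa-miR-30c-2-3p, hsa-miR-30d-5p, hsa-miR-30d-3p, hsa-miR-30e-5p and hsa-miR-30e-3p, out of 2656 mature miRNAs counted in the series. The prefix hsa, for human, is left out below. All 10 passed the filter on low counts, which kept 773 miRNAs. A further strand, miR-30c-1-3p, is given beside them because it completes the chromosome 1 pair. HEK293T is a human embryonic kidney line that carries the SV40 large T antigen. Every line was monoclonal and carried a landing pad, a genomic site built to receive a transgene. In the CAG group the pad held the CAG promoter, a synthetic promoter that joins the cytomegalovirus early enhancer to parts of the chicken beta-actin gene. In the PGK group it held the promoter of the phosphoglycerate kinase gene. Each group had 2 libraries, and no source used here states how many clones there were or where replicates came from, so promoter and clone cannot be told apart and p-values measure only the spread between these 4 libraries.

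A miRNA hairpin yields a 5p and a 3p strand, and a strand loaded into Argonaute directs silencing of messenger RNAs that pair with its seed, bases 2 to 8 from its 5′ end. The miR-30 family is abundant in kidney and other epithelia. It is known for restraining epithelial-to-mesenchymal transition and for its role in podocytes, the filtering cells of the kidney glomerulus. Its genes form 3 pairs of hairpins, so that similar 5p strands are made from separate chromosomes.

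The 7 mature strands below, from the chromosome 1 and chromosome 6 hairpins, are shown because the loci are told apart in the counts by very few bases (RefSeq, GRCh38.p14; 5′ to 3′, seed in capitals). A sequence was found for 7 of the 11 strands.
miR-30a-5p: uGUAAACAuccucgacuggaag
miR-30e-5p: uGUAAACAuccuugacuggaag
miR-30c-5p: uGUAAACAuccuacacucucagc
miR-30a-3p: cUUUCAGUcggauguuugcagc
miR-30e-3p: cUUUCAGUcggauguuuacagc
miR-30c-1-3p: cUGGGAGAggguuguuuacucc
miR-30c-2-3p: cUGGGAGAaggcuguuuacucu

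The 3 5p strands share the seed GUAAACA. miR-30a-5p and miR-30e-5p differ at 1 base, C13U, and their 3p strands differ at 1 base, G18A (positions counted from the 5′ end, the miR-30a base first). No source used here states how reads that fit both entries were counted, so the split between the 2 is uncertain to that extent. No sequence of a miR-30b or miR-30d strand was found, so whether the chromosome 8 strands have the same limit could not be examined. miR-30c-5p differs from miR-30a-5p at 5 of 22 bases and is 23 bases long, 1 more than the other strands shown. miR-30c-1-3p and miR-30c-2-3p share the seed UGGGAGA and differ from each other at 3 bases. In the authors' table of seed families, the GUAAACA row equalled the sum of all 5 miR-30 5p strands to within 1 read in every library. The UUUCAGU row equalled the sum of miR-30a-3p, miR-30d-3p and miR-30e-3p to within 1 read, and the UGGGAGA row matched the 2 miR-30c 3p strands exactly.

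MIR30B and MIR30D lie on the minus strand of chromosome 8 at 134800520 to 134800607 and 134804876 to 134804945, 4268 bases apart, where GENCODE 29 (GRCh38) annotates no overlapping gene. MIR30E (40754355 to 40754446) and MIR30C1 (40757284 to 40757372) lie on the plus strand of chromosome 1, 2837 bases apart, in an intron of NFYC, which encodes a subunit of the CCAAT-binding factor NF-Y. MIR30C2 (71376960 to 71377031) and MIR30A (71403551 to 71403621) lie on the minus strand of chromosome 6, 26519 bases apart, in an intron of the long non-coding RNA LINC00472. The mature miR-30c-5p is the same from MIR30C1 and MIR30C2, so its reads cannot be given to either locus, whereas the 2 miR-30c 3p strands can be told apart. The deposited tables hold no coordinates, and positions were looked up by hairpin name.

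The 4 libraries held 2845945 to 13780279 miRNA counts, with CAG replicate 2 the shallowest. Where a group has 2 values below, replicate 1 stands before replicate 2. The member with the fewest reads, miR-30b-3p, still had 95 reads in that library, so no member was near the limit of detection. The miR-30 strands took 3.35% and 2.94% of all counts in the CAG libraries, against 4.41% and 4.27% in the PGK libraries. The kidney epithelium list was fully detected, with 1 of 6 miRNAs higher and 2 lower in CAG cells. The edgeR test called 8.15% higher and 6.08% lower of all 773 tested miRNAs. The 1 higher was miR-204-5p, and the 2 lower were miR-192-5p and miR-194-5p. miR-192-5p is also counted in the epithelial state and fibrosis list below. The 6 summed to 128163 and 115140 CPM in the CAG libraries, against 106815 and 101540 CPM in the PGK libraries. miR-10a-5p made up most of each sum. The list of 15 markers of other cell types had 8 tested members, 1 higher and 3 lower beside the same background (DESeq2 called 1 higher and 2 lower), with miR-223-3p at 0 reads in all 4 libraries. The 15 markers summed to 3387 and 2976 CPM in the CAG libraries, against 5991 and 5598 CPM in the PGK libraries. Most of these sums was miR-9-5p, at 2060 and 1767 CPM in the CAG libraries, against 4088 and 3891 CPM in the PGK libraries. The marker called higher was miR-143-3p (log2 difference 1.32). The 3 called lower were miR-9-5p (−1.06) and the muscle miRNAs miR-1-3p (−2.61) and miR-133a-3p (−3.09). miR-133a-3p was near the floor, at 0.311 and 0 CPM in the CAG libraries, against 2.50 and 1.95 CPM in the PGK libraries. The part of these markers in the results below was not tested.

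miR-30d-5p was the leading strand of the family and the 10th most abundant of the 773 tested miRNAs. It stood at 19061 and 12889 CPM in the CAG libraries, against 25264 and 25283 CPM in the PGK libraries. CPM here is the library-scaled count (TMM factors, edgeR), and it is not divided by length, which differs by at most 1 base among the strands shown above. Both CAG libraries were below both PGK libraries, and the 2 CAG libraries differed far more from each other than the PGK libraries did. The strand fell by 0.66 on the log2 scale in CAG cells (SE 0.19; edgeR quasi-likelihood test, adjusted p = 0.0414 over all 773 miRNAs), a fold of 0.632. Without CAG replicate 2 the log2 difference was −0.40 (adjusted p = 0.0302), and without CAG replicate 1 it was −0.96. In these bulk samples fewer cells making a miRNA and less of it per cell cannot be told apart.

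miR-30b-5p, the partner of miR-30d on chromosome 8, was the other strand that changed. It stood at 539 and 600 CPM in the CAG libraries, against 1106 and 871 CPM in the PGK libraries. The groups did not overlap. It fell by 0.80 on the log2 scale (SE 0.19; edgeR adjusted p = 0.0197), a fold of 0.575. The test thus called 2 of the 10 members lower and 0 higher in CAG cells, beside a background of 6.08% lower and 8.15% higher among the 773 tested miRNAs. Unadjusted, the edgeR p was under 0.05 for 3 members, all lower, and for 208 of all 773 tested miRNAs in either direction. Over all miRNAs DESeq2 called 52 higher and 43 lower, and limma-voom called 63 higher and 50 lower. Both tools called the same 2 strands lower and 0 higher. Both calls were lost without PGK replicate 1 (adjusted p = 0.319 for miR-30d-5p and 0.209 for miR-30b-5p) and without PGK replicate 2 (0.3001 and 0.143), where the PGK group is a single library assumed to vary like the CAG pair, and also with the replicate number as a block (0.0854 and 0.0613). Upper-quartile scaling and leaving out the low-count filter each ended the call of miR-30d-5p (adjusted p = 0.0501 and 0.0831).

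The passenger strands of chromosome 8 were scarce and did not pass the test. miR-30b-3p stood at 27.3 and 30.8 CPM in the CAG libraries, against 46.3 and 41.1 CPM in the PGK libraries, a log2 difference of −0.61 (SE 0.22; edgeR adjusted p = 0.0926). miR-30d-3p stood at 59.6 and 64.8 CPM in the CAG libraries, against 66.7 and 77.5 CPM in the PGK libraries, a log2 difference of −0.22 (SE 0.20; adjusted p = 0.517) that lay between −0.34 and −0.11 when either PGK library was left out. For both the groups lay apart in the same order as for the 5p strands.

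On chromosome 6, miR-30a-5p stood at 4632 and 3220 CPM in the CAG libraries, against 5242 and 5088 CPM in the PGK libraries. Its log2 difference was −0.40 (SE 0.19; edgeR adjusted p = 0.209). It was called without CAG replicate 1, at −0.67 (adjusted p = 0.00203), so CAG replicate 1 decides that call, and it was −0.15 without CAG replicate 2 (adjusted p = 0.548). miR-30a-3p stood at 1362 and 1568 CPM in the CAG libraries, against 1816 and 1749 CPM in the PGK libraries, a log2 difference of −0.28 (SE 0.17; edgeR adjusted p = 0.299) that was −0.18 without CAG replicate 1. In CAG cells replicate 2 was thus the lower library for the 5p strand and the higher library for the 3p strand of the same hairpin. miR-30c-2-3p stood at 124 and 121 CPM in the CAG libraries, against 155 and 145 CPM in the PGK libraries, a log2 difference of −0.29 (SE 0.18; edgeR adjusted p = 0.325).

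On chromosome 1, no strand had a lower fitted level in CAG cells. miR-30e-5p stood at 2075 and 1262 CPM in the CAG libraries, against 1662 and 1612 CPM in the PGK libraries, so that the CAG libraries lay on either side of the PGK libraries. Its log2 difference was 0.03 (SE 0.23; edgeR adjusted p = 0.937), and it was −0.37 without CAG replicate 1 and 0.35 without CAG replicate 2. miR-30e-3p stood at 3046 and 3295 CPM in the CAG libraries, against 3190 and 2887 CPM in the PGK libraries, a log2 difference of 0.06 (SE 0.16; adjusted p = 0.838) with overlapping groups. miR-30c-1-3p stood at 70.4 and 62.2 CPM in the CAG libraries, against 59.9 and 52.8 CPM in the PGK libraries, a log2 difference of 0.24 (SE 0.20; edgeR adjusted p = 0.464). It was the only one of the 11 strands with both CAG libraries above both PGK libraries, as 29.8% of all tested miRNAs had.

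miR-30c-5p, the product of both chromosome 1 and chromosome 6, was the second most abundant strand of the family. It stood at 4879 and 3963 CPM in the CAG libraries, against 5116 and 5822 CPM in the PGK libraries, a log2 difference of −0.31 (SE 0.17; edgeR adjusted p = 0.269). That difference was −0.16 without CAG replicate 2 and −0.46 without CAG replicate 1. Over the 10 members the median log2 difference was −0.30, beside −0.0042 over all 773 tested miRNAs. Both CAG libraries lay below both PGK libraries for 8 of the 10 members, beside 27.4% of all tested miRNAs. The members share hairpins, loci and libraries, so these are not separate readings.

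**Figure D1:**
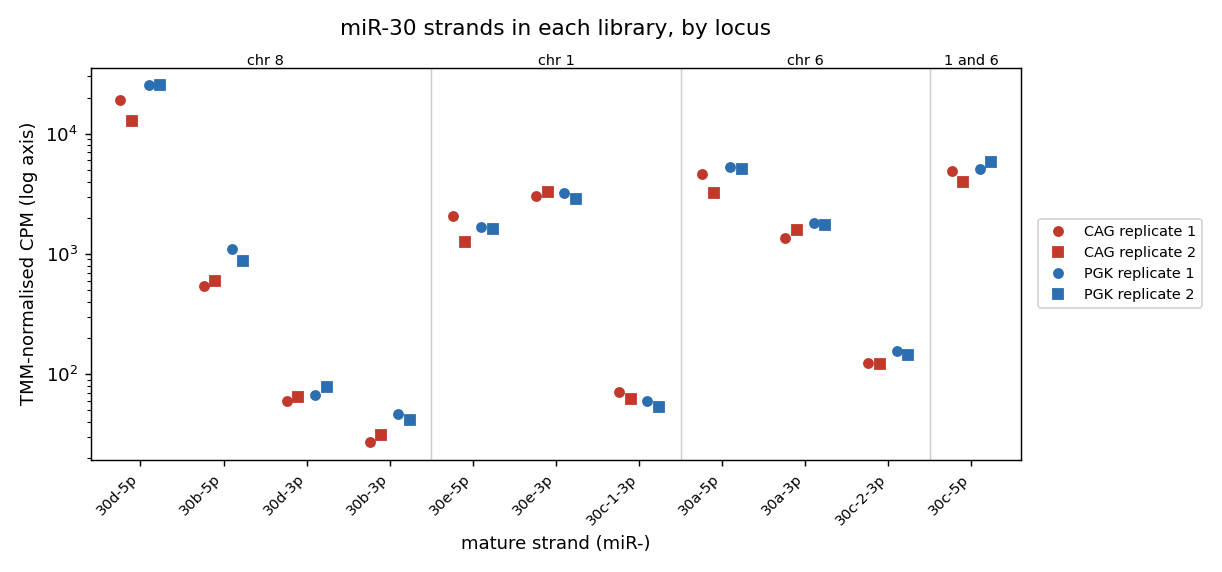
TMM-normalised CPM (log axis) of the 10 members and miR-30c-1-3p in each of the 4 libraries, grouped by locus, with CAG libraries in red left of PGK libraries in blue, circles for replicate 1 and squares for replicate 2. miR-30d-5p stands highest in every library, and the CAG points lie below the PGK points for 8 of the 10 members.

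**Figure D2:**
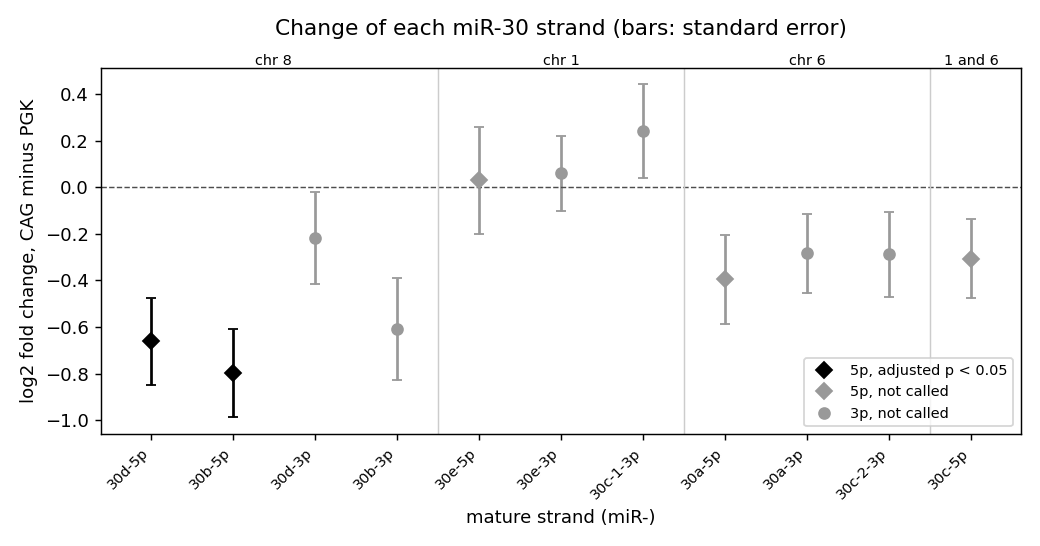
Log2 fold change of each strand, CAG minus PGK, from the edgeR fit, with bars of 1 standard error (2 libraries a group); diamonds are 5p strands, circles are 3p strands, and black marks an adjusted p under 0.05. The chromosome 8 strands lie between −0.80 and −0.22, the chromosome 6 strands between −0.40 and −0.28 and the chromosome 1 strands between 0.03 and 0.24.

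The order of the strands by level was nearly the same in both groups. In CAG cells it was miR-30d-5p, miR-30c-5p, miR-30a-5p, miR-30e-3p, miR-30e-5p, miR-30a-3p, miR-30b-5p, miR-30c-2-3p, miR-30c-1-3p, miR-30d-3p and miR-30b-3p. In PGK cells miR-30a-3p stood above miR-30e-5p, and miR-30d-3p above miR-30c-1-3p. Neighbours that overlapped in CAG cells were miR-30c-5p with miR-30a-5p, miR-30a-5p with miR-30e-3p, miR-30e-5p with miR-30a-3p, and miR-30c-1-3p with miR-30d-3p. In PGK cells the libraries of neighbours overlapped for miR-30c-5p with miR-30a-5p. The first and last strands averaged 15975 ± 4364 and 29.02 ± 2.50 CPM in CAG cells, and 25273 ± 13.97 and 43.7 ± 3.65 CPM in PGK cells (means of 2 libraries ± SD). Adapter ligation in this kit depends on sequence, so levels of different strands are less comparable than levels of 1 strand between libraries.

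The strands were then summed by locus to ask whether the 3 gene pairs moved alike. The chromosome 8 sum stood at 19765 and 13556 CPM in the CAG libraries, against 26554 and 26152 CPM in the PGK libraries. It fell by 0.66 on the log2 scale (SE 0.19; edgeR adjusted p = 0.0418 over 766 rows, of which 6.01% were called lower). miR-30d-5p makes up most of this sum, so it is no separate evidence. Leaving out a PGK library ended this call too (adjusted p = 0.349 without PGK replicate 1 and 0.315 without PGK replicate 2), and without CAG replicate 2 the log2 difference was −0.42. The chromosome 6 sum stood at 6142 and 4899 CPM in the CAG libraries, against 7233 and 6949 CPM in the PGK libraries, a log2 difference of −0.36 (SE 0.16; edgeR adjusted p = 0.184). Without CAG replicate 1 that difference was −0.53 and was called (adjusted p = 0.0209), and without CAG replicate 2 it was −0.21. The chromosome 1 sum stood at 5212 and 4610 CPM in the CAG libraries, against 4924 and 4531 CPM in the PGK libraries, a log2 difference of 0.06 (SE 0.16; edgeR adjusted p = 0.843) whose sign turned with upper-quartile scaling (−0.05).

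Shares within the family do not depend on how libraries are scaled. Chromosome 8 gave 54.9% and 50.2% of all miR-30 reads in the CAG libraries, against 60.6% and 60.2% in the PGK libraries. Chromosome 1 gave 14.5% and 17.1% in the CAG libraries, against 11.2% and 10.4% in the PGK libraries. Chromosome 6 gave 17.1% and 18.1% in the CAG libraries, against 16.5% and 16.0% in the PGK libraries. The differences, CAG minus PGK, were −7.87, 4.93 and 1.34 percentage points, and the groups lay apart for each locus. These shares and that of miR-30c-5p make up the whole, so they are bound together and are not separate readings. In CPM the chromosome 6 sum was lower in both CAG libraries, although its share was higher. Without CAG replicate 2 the chromosome 6 share difference was 0.80 points. The widest 95% exact binomial interval of these shares spans 0.679 percentage points and covers counting error only, since no molecular identifiers are described and PCR copies are not separate molecules. The exact permutation test over the 4 libraries, two-sided, gave p = 0.333 for each locus, which is the smallest p that 2 libraries against 2 allow, so this design cannot reach 0.05. Among 5p strands alone the chromosome 1 difference was 1.96 points, from a lower base. There miR-30e-5p averaged 6.20% in the CAG libraries and 4.25% in the PGK libraries. Among all strands chromosome 1 averaged 15.8% and 10.8%, so the 2 differences in points cannot be compared directly.

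**Figure D3:**
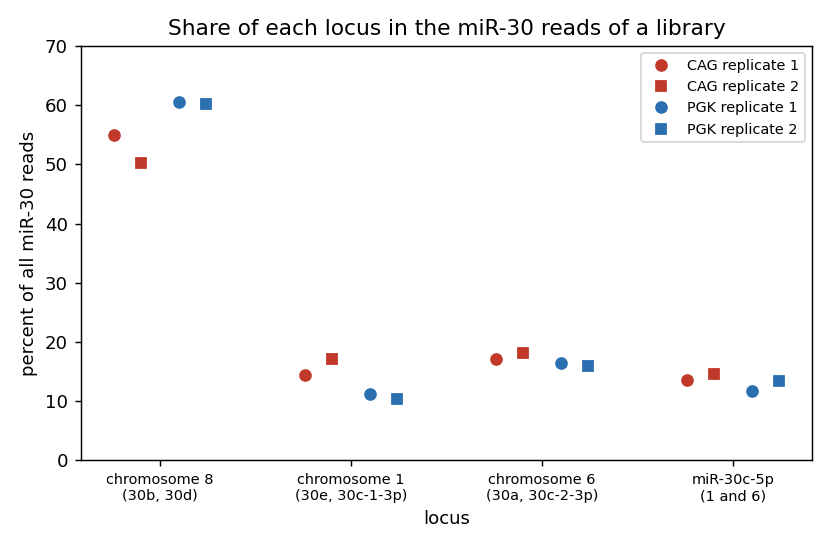
Percent of all miR-30 reads in a library that came from each locus, for CAG libraries (red) left of PGK libraries (blue), with miR-30c-5p apart because chromosomes 1 and 6 both make it. Chromosome 8 holds 50.2% to 54.9% in CAG libraries and 60.2% to 60.6% in PGK libraries, and chromosome 1 holds more in both CAG libraries than in either PGK library.

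Ratios of chromosome 6 strands to chromosome 1 strands were lower in both CAG libraries on both arms, as was the ratio of miR-30d-5p to miR-30e-5p. miR-30d-5p had 9.19 and 10.2 reads per miR-30e-5p read in the CAG libraries, against 15.2 and 15.7 in the PGK libraries. miR-30a-5p had 2.23 and 2.55 reads per miR-30e-5p read in the CAG libraries, against 3.16 and 3.16 in the PGK libraries. On the other arm, miR-30a-3p had 0.447 and 0.476 reads per miR-30e-3p read in the CAG libraries, against 0.569 and 0.606 in the PGK libraries. The groups lay apart for each of these ratios, and chromosome 1 had the larger part in CAG cells each time.

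The 3p strands of miR-30c bear on the same pairs of loci with other sequences, those printed above that differ at 3 bases. miR-30c-2-3p had 1.76 and 1.95 reads per miR-30c-1-3p read in the CAG libraries, against 2.59 and 2.74 in the PGK libraries, a log2 difference of −0.52. Within chromosome 8, by contrast, miR-30b-5p had 0.0283 and 0.0465 reads per miR-30d-5p read in the CAG libraries, against 0.0438 and 0.0345 in the PGK libraries, with overlapping groups. Of 11 ratios computed, 10 had groups that lay apart, each with an exact permutation p = 0.333 (0.367 after Benjamini-Hochberg adjustment over the 11), the smallest this design allows. They share strands and libraries and were not tested against other miRNAs. The share of ratios between other strands that lie apart was not computed. In CPM, CAG lay wholly above PGK for 29.8% and wholly below for 27.4% of the 773 tested miRNAs.

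The hairpins differed widely in which arm held the reads. miR-30d had 320 and 199 5p reads per 3p read in the CAG libraries, against 379 and 326 in the PGK libraries. miR-30b had 19.8 and 19.5 in the CAG libraries, against 23.9 and 21.2 in the PGK libraries. miR-30c, with its 3p strands summed, had 25.1 and 21.6 in the CAG libraries, against 23.8 and 29.4 in the PGK libraries. These 3 hairpins were strongly weighted to the 5p arm in every library.

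miR-30a was closer to balance, with 3.40 and 2.05 5p reads per 3p read in the CAG libraries, against 2.89 and 2.91 in the PGK libraries. miR-30e was the only hairpin of the 5 with more 3p than 5p reads, at 0.681 and 0.383 5p reads per 3p read in the CAG libraries, against 0.521 and 0.559 in the PGK libraries. This order of the hairpins held in each library apart from miR-30b and miR-30c, which changed places in PGK replicate 1. miR-30a and miR-30e thus lay on opposite sides of equal arms in all 4 libraries, although their strands printed above differ by 1 base on each arm.

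**Figure D4:**
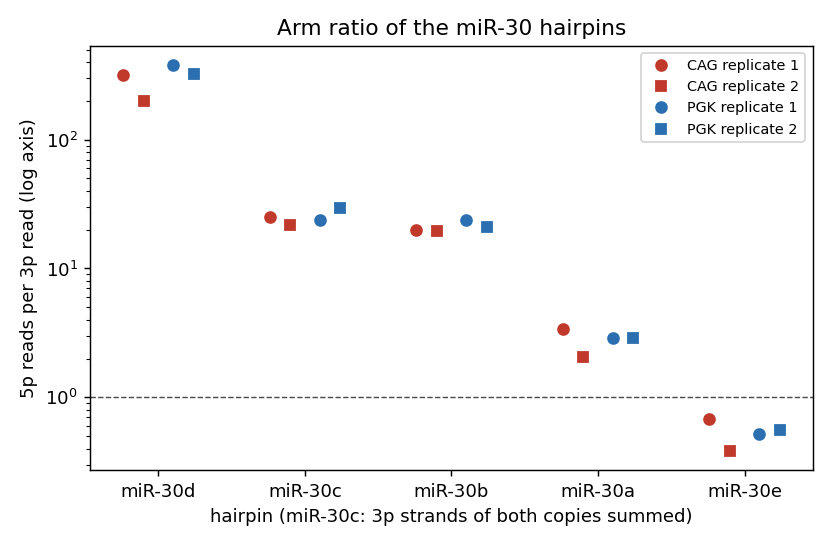
Reads of the 5p strand per read of the 3p strand (log axis) for the 5 hairpins in CAG libraries (red, left) and PGK libraries (blue, right); the dashed line marks equal arms. Ratios run from 199 to 379 for miR-30d down to 0.383 to 0.681 for miR-30e, and CAG replicate 2 is the lowest library for each hairpin.

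A fit of the 5p to 3p ratio over 244 hairpins asked whether arm use differed between the groups. It called 0% of hairpins (edgeR, adjusted p under 0.05; 17 at an unadjusted p under 0.05), and limma on the log2 ratios called 1, which was not a miR-30 hairpin (16 at an unadjusted p under 0.05). The change in log2 ratio, CAG minus PGK, was −0.46 for miR-30d (SE 0.27; adjusted p = 0.797), −0.20 for miR-30b (SE 0.33), −0.18 for miR-30c (SE 0.28), −0.13 for miR-30a (SE 0.27) and −0.08 for miR-30e (SE 0.28), with adjusted p = 0.984 for the last 4 in the edgeR fit. Without CAG replicate 1 the miR-30d value was −0.82, and without CAG replicate 2 it was −0.14, each with a single CAG library. Without CAG replicate 2 the values of miR-30a and miR-30e were 0.23 and 0.34, positive where the full fit was negative.

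In arm use over all miR-30 strands, CAG replicate 1 lay nearer the PGK libraries than CAG replicate 2 did. All miR-30 5p strands together had 6.65 and 4.27 reads per 3p read in the CAG libraries, against 7.20 and 7.81 in the PGK libraries. In CPM, the 5p strands summed to 31186 and 21934 in the CAG libraries, against 38388 and 38677 in the PGK libraries. The 3p strands summed to 4690 and 5142 CPM in the CAG libraries, against 5334 and 4952 CPM in the PGK libraries. CAG replicate 2 was thus the lowest library on the 5p arm and not on the 3p arm.

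Set against other hairpins, the difference between the CAG replicates was in the lower part of the range for 3 of the 5 miR-30 hairpins. It cannot be given to CAG replicate 2 alone, since CAG replicate 1 lay above both PGK libraries for miR-30a and miR-30e. Over 88 hairpins with at least 50 reads of each arm in every library, the log2 ratio in CAG replicate 2 minus CAG replicate 1 had a median of −0.17. Its 5% quantile was −0.885, and 18.2% of the 88 hairpins lay below −0.5. The difference was −0.83 for miR-30e, −0.73 for miR-30a and −0.69 for miR-30d, with 7, 10 and 11 of the 88 hairpins lower. It was −0.22 for miR-30c and −0.03 for miR-30b, near the middle. Between the PGK replicates the median was −0.02 and the miR-30 hairpins lay between −0.22 and 0.31. CAG replicate 2 is also the library with the fewest reads, and the part of depth in the difference between the CAG replicates was not tested.

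**Figure D5:**
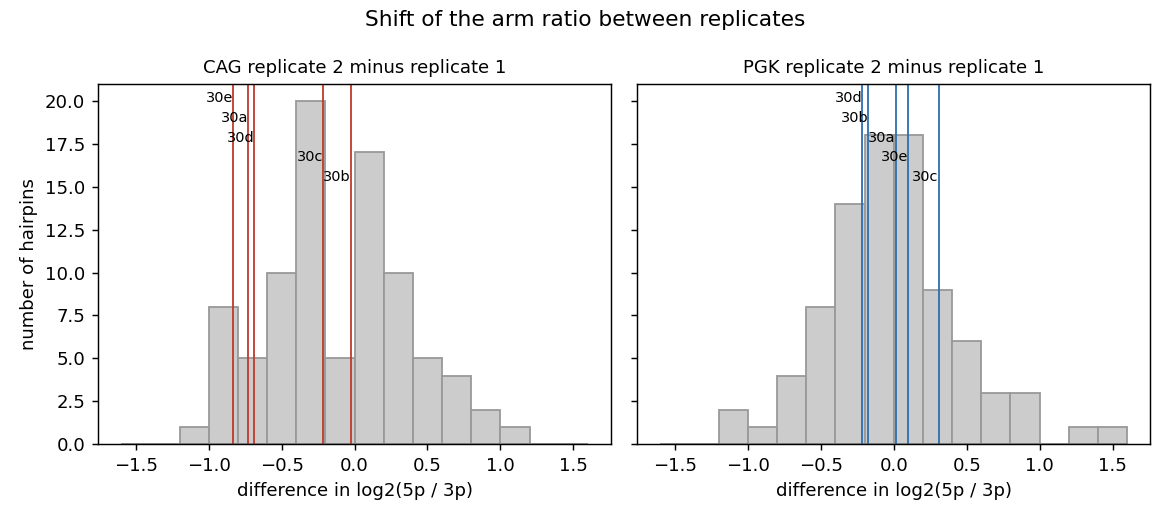
Number of hairpins by the difference in log2(5p/3p) between replicate 2 and replicate 1, in CAG libraries (left) and PGK libraries (right), for 88 hairpins with at least 50 reads of each arm in every library; lines mark the miR-30 hairpins. In CAG libraries miR-30e, miR-30a and miR-30d lie at −0.83, −0.73 and −0.69, and in PGK libraries all 5 lie between −0.22 and 0.31.

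Targets read the family through its seed. The seed family GUAAACA, the sum of the 5 5p strands, stood at 31121 and 21438 CPM in the CAG libraries, against 38832 and 39196 CPM in the PGK libraries of the family table. Its log2 difference was −0.57 (SE 0.19) and was not called (edgeR adjusted p = 0.0954 over 642 families, of which 4.67% were called lower). It was called with RLE scaling (adjusted p = 0.0465), with library size scaling (0.0120) and without CAG replicate 1 (0.0237, at −0.88), and it was −0.34 without CAG replicate 2 (0.0755). miR-30d-5p supplied 61.1% and 58.8% of the 5p reads in the CAG libraries, against 65.8% and 65.4% in the PGK libraries. miR-30e-5p supplied 6.65% and 5.75% in the CAG libraries, against 4.33% and 4.17% in the PGK libraries.

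The seed families of the 3p strands had log2 differences nearer 0. The family UUUCAGU stood at 4458 and 4816 CPM in the CAG libraries, against 5131 and 4776 CPM in the PGK libraries, a log2 difference of −0.10 (SE 0.15; edgeR adjusted p = 0.740). miR-30e-3p gave 65.0% and 64.1% of the reads of the 6 3p strands in the CAG libraries, against 59.8% and 58.3% in the PGK libraries. The family UGGGAGA, the 2 miR-30c 3p strands, stood at 194 and 179 CPM in the CAG libraries, against 217 and 200.4 CPM in the PGK libraries, a log2 difference of −0.16 (SE 0.17; edgeR adjusted p = 0.605).

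Other miRNAs of the long arm of chromosome 8 were read beside miR-30b and miR-30d. All 24 listed entries lie on chromosome 8 within 5.93 to 9.99 Mb of MIR30D in RefSeq, and 6 were tested. The edgeR test called 0 of them in either direction, against 14.2% called among all miRNAs, and DESeq2 and limma-voom also called 0. At an unadjusted edgeR p under 0.05 there was 1, beside 208 of all 773 tested miRNAs. With 6 tested, 0 calls does not show them unchanged. Their median log2 difference was −0.37, and each was negative, from −0.96 for miR-939-5p to −0.15 for miR-4664-3p. miR-939-5p and miR-6847-5p were scarce, at 2.65 CPM or less in every library. Both CAG libraries lay below both PGK libraries for every tested entry but miR-4664-3p, beside 27.4% of all tested miRNAs. miR-151a-3p, from an intron of PTK2 and the most abundant of them, had a log2 difference of −0.22 (SE 0.14; edgeR adjusted p = 0.322), and miR-151a-5p had −0.52 (SE 0.23; adjusted p = 0.170). Of 10 miRNAs known, like miR-30, to act on epithelial state and fibrosis, 8 were tested, 1 was higher and 2 were lower, beside 8.15% higher and 6.08% lower of all miRNAs, with a median log2 difference of −0.24. miR-200c-3p, which represses ZEB transcription factors, was the member that rose (1.03, SE 0.21; edgeR adjusted p = 0.00887), and miR-200b-3p of the same family fell by 1.82 (SE 0.30; adjusted p = 0.00257), as did miR-192-5p of kidney and gut epithelium by 0.96 (SE 0.16; adjusted p = 0.00303). miR-200c-3p stood at only 66.2 and 54.5 CPM in the CAG libraries, against 29.8 and 29.7 CPM in the PGK libraries. miR-200b-3p was scarcer, at 5.13 and 4.21 CPM in the CAG libraries, against 19.3 and 15.1 CPM in the PGK libraries. miR-29a-3p, which targets collagen messenger RNAs, had a log2 difference of 0.01 (SE 0.18; adjusted p = 0.981).

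Among 213 other miRNAs averaging 100 CPM or more, those whose 4-library profile lay nearest the summed 5p strands were miR-618, miR-340-3p, miR-455-5p, miR-4521 and miR-574-5p. Their Euclidean distances in centred log2 CPM were 0.134, 0.196, 0.197, 0.212 and 0.217. miR-618, the nearest, stood at 235 and 158 CPM in the CAG libraries, against 290 and 316 CPM in the PGK libraries. CAG replicate 2 was the lowest library for each of the 5, as for the summed 5p strands they were matched to, so this likeness follows from how they were chosen.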

How the data were processed

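Small RNA was measured in 4 HEK293T libraries, 2 CAG and 2 PGK, grouped by sample title. Per the labels' protocols, total RNA was extracted with Trizol and the NEBNext Small RNA kit was used for the libraries. The authors deposited whole-number counts per mature miRNA and per seed family; no source used here states the trimming, alignment, counting rule or build. Totals were 13780279 and 2845945 counts in CAG replicates 1 and 2, and 7927615 and 7331437 in PGK replicates 1 and 2; 3 counts, the limit for a count of 0, equal 0.233 to 0.972 CPM. A chi-square statistic of replicate counts was 125 per degree of freedom for the CAG pair and 66.1 for the PGK pair, so no library was a copy.

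The main test was edgeR 4.0.16 (R 4.3.3; quasi-likelihood, robust, TMM factors, minimum count 10 and total 15, group alone, CAG minus PGK), two-sided, with Benjamini-Hochberg adjustment over all rows and a threshold of 0.05. SE is the fold change over the root of F. The same fit was run on families and on a table with locus sums. Arm ratios were fitted over hairpins with at least 10 reads in every library and for each arm in all, with library as a block. Alternatives used DESeq2 1.42.0, limma 3.58.1, other scalings and filters, the replicate block and each library left out. The scripts were tested on simulated data. Exact permutation tests used Python 3.11.15 with scipy 1.17.1.

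The members and lists were chosen with earlier results of these data known; the replicate shift of arm ratios and the ratios between strands were chosen after seeing the data. By rule the text names all members, miR-30c-1-3p and the 5 miRNAs nearest in profile; list members named beyond these were chosen after their values were seen. Same-numbered replicates did not deviate together (correlation of deviations −0.02 over 773 miRNAs).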

Additional observations from a re-analysis of the deposited data

How the results depend on the processing

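With 2 libraries a group, the miR-30 calls were lost when either PGK library was left out. The number of the 10 members called lower was 2, and it was 1 with upper-quartile scaling, 1 without the low-count filter, 0 at a threshold of 0.01, and 0 to 3 when each library was left out. Over all miRNAs, 63 higher and 47 lower became 32 and 17 at a threshold of 0.01, 39 higher with the filter of 10 CPM, and 10 to 84 higher and 6 to 78 lower when each library was left out. With the replicate number as a block the counts were 40 higher and 23 lower over all miRNAs, and 0 of the miR-30 members; the labels do not say what a number stands for, and the samples share only a number. The seed family GUAAACA, at −0.57, was past the threshold with RLE scaling (−0.58) and library size scaling (−0.53), and ran from −0.88 to −0.34 when each library was left out. The chromosome 8 sum (−0.66) missed the threshold without the low-count filter (−0.67) and at 0.01 (−0.66), and ran from −0.95 to −0.42 when each library was left out. The chromosome 6 sum ran from −0.53 to −0.21 and the chromosome 1 sum from −0.032 to 0.14 in the same way, and the chromosome 1 sum was −0.046 with upper-quartile scaling. miR-30e-5p changed sign with the replicate block (−0.015), without CAG replicate 1 (−0.37) and without PGK replicate 2 (−0.0029), with 0.35 as its highest value when a library was left out. miR-30e-3p changed sign without PGK replicate 2 (−0.018) and reached 0.12. The arm ratios of miR-30a and miR-30e changed sign without CAG replicate 2 (0.23 and 0.34) and were −0.50 and −0.49 without CAG replicate 1, and hairpins of the family called with a lower 5p share numbered 0 to 1 when each library was left out. The chromosome 1 share difference was 1.96 points among 5p strands and 4.93 among all strands, which are shares of unlike totals. The cause of these changes was not tested. In CAG replicate 2, the shallowest library, 1 read is worth 0.324 CPM and miR-30b-3p had 95 reads.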
